A study of Mus musculus with 2 samples.

Results

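In the single-cell library of bone cells sorted as osteal macrophages (Omacs), 189 of 2349 barcodes were stromal cells in which Prg4 and Dcn, the genes of the joint lubricant lubricin and of the matrix proteoglycan decorin, were among the most abundant transcripts. These cells were selected on those genes, with no other criterion. A barcode was a member when its Prg4 and Dcn unique molecular identifiers (UMIs, each of which marks 1 captured RNA molecule) made up at least 0.5% of its gene UMIs. Members were 8.05% of all barcodes (95% Clopper-Pearson interval 6.98 to 9.22%) and held 28.2% of all gene UMIs.

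The library combined cells of 2 groups of female BALB/c mice. The OVX group had both ovaries removed at 10 weeks of age, the sham group was sham-operated, and the labels list no transgene and no other treatment. Cells were taken 4 weeks after surgery from femurs and vertebrae of 20 pooled mice per group. The periosteum was removed, the ends of the femurs were cut off, marrow was washed out, and bone pieces were digested with trypsin and then overnight with collagenase D before sorting on CD11b, F4/80 and CD68. OVX cells carried hashtag antibody 1 and sham cells hashtag antibody 2, and both were run in 1 droplet reaction. With 1 pool per group, no difference between OVX and sham has a replicate check, and all intervals below cover counting error only. Because there was 1 library, no barcode was shared between libraries.

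Lubricin is secreted at joint surfaces, by the lining fibroblasts of the synovium and by the flat chondrocytes of the superficial zone of articular cartilage. Deeper chondrocytes rely on the transcription factor Sox9 and secrete type II collagen and aggrecan, while hypertrophic chondrocytes secrete type X collagen. Decorin is made by fibroblasts of many tissues, by periosteal and tendon cells and by superficial chondrocytes, and Prg4 and Dcn together therefore do not single out 1 of these cell types.

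Members were large barcodes. Their gene UMIs ranged from 546 to 141565, with a median of 20523 and 4294 genes, against medians of 4022 UMIs and 1149.5 genes in the 2160 other barcodes. There were 153 members with 10000 UMIs or more and 11 with fewer than 1000. The summed Prg4 and Dcn share had a median of 4.02% and a maximum of 12.4% in members. The lowest members lay at 0.573, 0.61 and 0.622%, and the highest barcodes outside at 0.495, 0.409 and 0.382%. Between 0.1% and 0.5% lay 114 barcodes, with a median of 1315 UMIs.

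**Figure D1:**
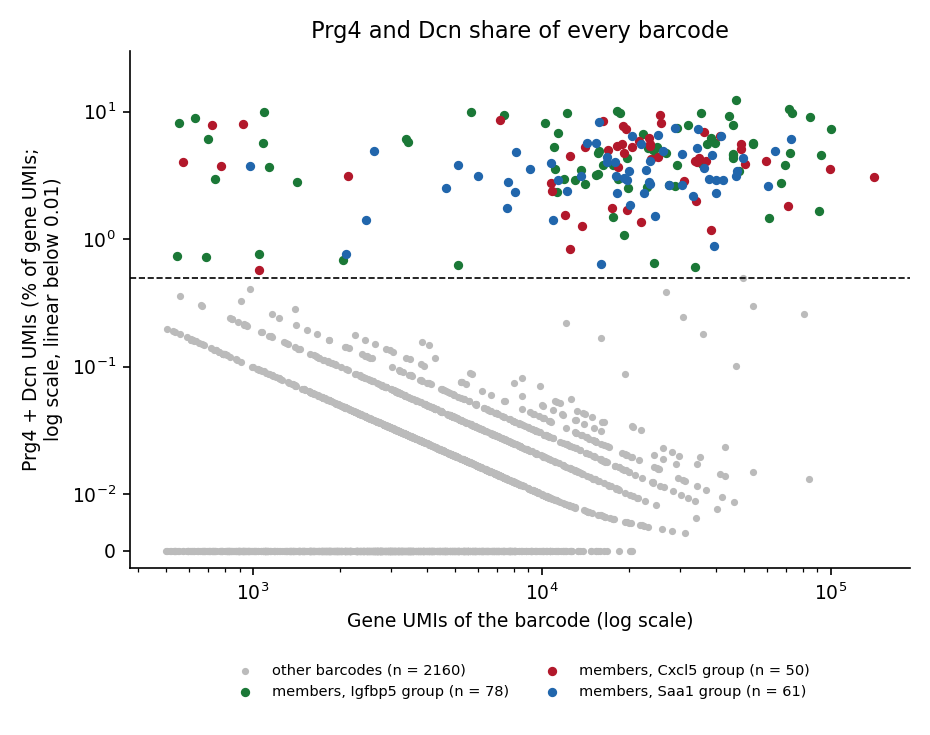
Share of Prg4 and Dcn UMIs (vertical axis, percent of gene UMIs, log scale that is linear below 0.01) against gene UMIs (horizontal axis, log scale) for each of the 2349 barcodes, with members coloured by the groups described further on. Members lie above the dashed line at 0.5%, mostly with 10000 UMIs or more, while the grey bands of other barcodes are those with 0, 1 or a few UMIs of the pair.

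Expression is given below as summed UMIs per 1000000 gene UMIs (CPM). The kit counts the 3′ end of each transcript, so that CPM does not scale with transcript length. Since the members were chosen on the contrast with the other barcodes, and most of the other barcodes had the RNA of neutrophils, every comparison of these sets is a description without a test. Of 2102 genes that reached 100 CPM in members or in other barcodes, 28.6% were 4-fold or more higher in members, and 19.3% were 4-fold or more lower, which is the background for the list counts that follow.

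Of the 6 genes that label these cells, Prg4 and Dcn chose them, and the other 4 were detected at 100 CPM or more. Prg4 (at chr1:150449412-150466165 of GRCm38) stood at 28389.5 CPM (28242 to 28538, exact Poisson) in members and 115 CPM in the other barcodes. Dcn (chr10:97479609-97518143) stood at 17970.5 CPM against 142. Sox9, the master transcription factor of cartilage, stood at 1131 against 24.7 CPM, and Chad, whose product chondroadherin binds chondrocytes to matrix, at 654 against 6.62. Abi3bp, a matrix protein gene, stood at 204 against 1.65, and Prrx1, a homeobox gene of limb mesenchyme, at 117 against 2.68. Prrx1 was the least abundant of the markers. In single members Prg4 ranged from 0 to 108847 CPM with a median of 21648. More UMIs came from Prg4 than from Dcn in 111 members, so that neither gene dominated throughout. After each barcode was thinned to 1000 UMIs, which left out 11 members and 160 others, Prg4 was detected in 94.4% of members and 10.4% of other barcodes. The unthinned shares were 98.9% and 37.3%. The share in other barcodes, at their lower depth, is the background for these detections.

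Genes of cartilage matrix were well represented among members, although the set was incomplete. Of 19 genes of this list, 9 reached 100 CPM, and all 9 were 4-fold or more higher than in the other barcodes. Sox9, given above, was the most abundant of them. Comp, which binds collagen fibrils, stood at 1035 CPM, Col2a1, the collagen of hyaline cartilage, at 936, and Acan, its large proteoglycan, at 772. Cytl1, a secreted protein of cartilage, stood at 385 CPM, 104-fold the other barcodes. By contrast, 4 of the 19 genes stood at 10 CPM or less. Among them Col9a1, a collagen that coats type II fibrils, had 5 UMIs and the matrilin gene Matn3 7 UMIs in all members together. Matn1, a matrilin of tracheal and growth cartilage, had none, and 0 UMIs in this set allow at most 0.601 CPM.

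Markers of the superficial zone and of the synovial lining, which share Prg4, gave mixed values. Of 8 superficial zone genes, 4 reached 100 CPM and 3 of these, Prg4 itself, Abi3bp and Cilp, were 4-fold or more higher in members. Cilp, a matrix protein of articular cartilage, stood at 868 CPM against 12.6. The transcription factor gene Creb5 stood at 102 CPM in members and 147 in the others, and Erg, a transcription factor of developing joints, at 6.21 CPM. Of 8 synovial lining genes, 4 reached 100 CPM and 4 stayed at 10 CPM or less. Besides Prg4 the former were Hbegf, a growth factor gene at 1286 CPM, Pdpn, the gene of podoplanin, at 428, and the protease gene Htra4 at 145. The lining marker Clic5 had 1 UMI and Tspan15 26 UMIs. Members therefore lacked part of the marker set of both tissues.

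General fibroblast genes were partly present, and most markers of other mesenchymal cells were low or missing, while single genes of some lists were abundant. Of 12 pan-fibroblast genes 4 reached 100 CPM, and all 4 were 4-fold or more higher in members. Col6a1, a microfibrillar collagen, stood at 521 CPM and Pdgfra, a growth factor receptor of mesenchymal cells, at 168. None of 8 genes of sublining or adventitial fibroblasts reached 100 CPM, and Thy1 and Dpp4 had 0 UMIs. Col1a1, the main collagen of bone, tendon and most fibroblasts, stood at only 18 CPM, and Col3a1 at 20.2. Of 12 osteoblast and osteocyte genes, 9 were at 10 CPM or less, and Bglap, which encodes osteocalcin, had 0 UMIs. Spp1, by contrast, held 97.6% of this list's 1778 CPM. The list summed to 676 CPM in the other barcodes, and Spp1 was not 4-fold or more higher in members. Of 8 periosteal and skeletal stem cell genes 5 were at 10 CPM or less. Postn, the gene of periostin, had 11 UMIs, and Prrx1 was the member of that list at 100 CPM. Of 7 marrow reticular stromal genes 5 were at 10 CPM or less, among them Lepr with 14 UMIs, while the transcription factor gene Foxc1 stood at 91.3 CPM against 2.52. Of 6 pericyte and smooth muscle genes 5 were at 10 CPM or less, but Cspg4 stood at 697 CPM. Of 7 tendon and ligament genes 4 were at 10 CPM or less, while Fmod stood at 182 CPM. Endothelial and skeletal muscle lists had no gene at 100 CPM.

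Some of the genes that stood far above the other barcodes belong to none of these lists. Ntn4, which encodes a netrin of basement membranes, stood at 145 CPM (205-fold the others), the neuropeptide gene Npy at 112 (177-fold) and the secreted peptide gene Ecrg4 at 884 (165-fold). Clu, a secreted chaperone, stood at 1586 CPM (156-fold), the matrix genes Prelp and Smoc2 at 256 and 299, and Rbp4, the carrier of retinol, at 227. Esm1, a proteoglycan known from endothelium, stood at 1504 CPM and the keratin gene Krt17 at 113. Trdc, the constant region of the T cell receptor delta chain, stood at 396 CPM against 2.68, and had a UMI in 50.3% of members, while the T cell gene Cd3e had 0 UMIs. Esr1 and Esr2, the estrogen receptor genes, had 2 and 0 UMIs in all members.

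**Figure D2:**
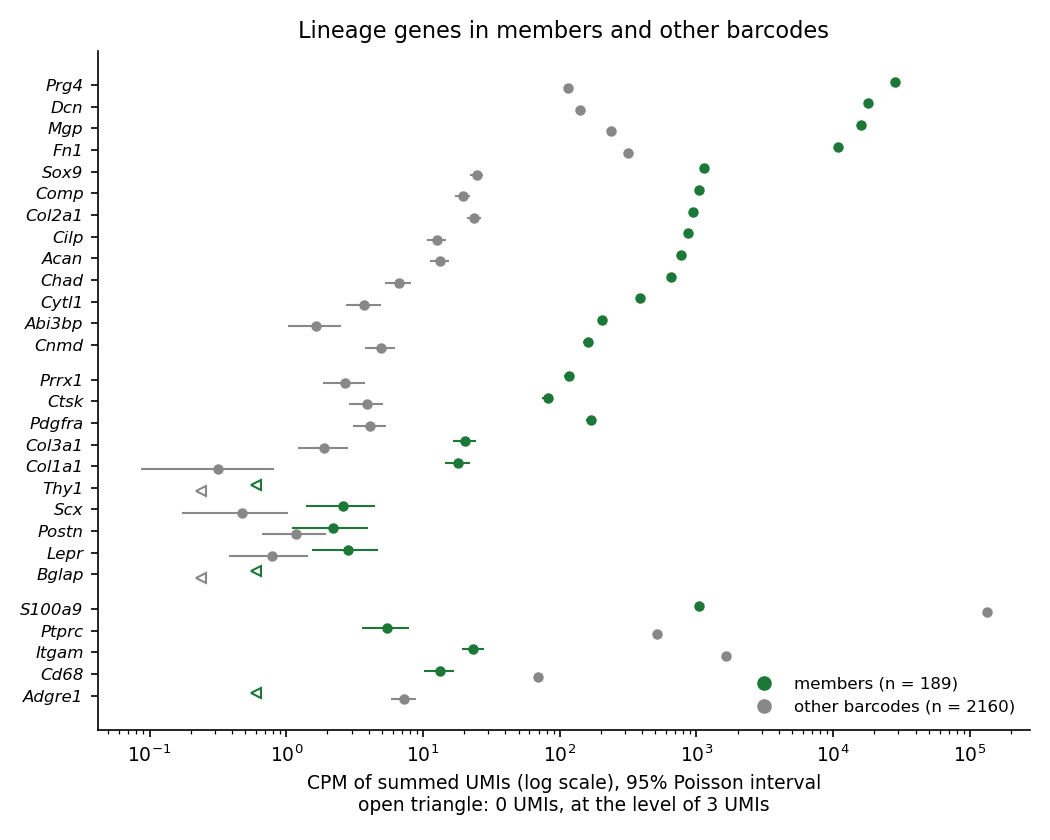
Level of matrix and cartilage genes (top), other mesenchymal genes (middle) and leukocyte genes (bottom) in 189 members and 2160 other barcodes (CPM, log scale, bars are 95% Poisson intervals, open triangles mark 0 UMIs at the level of 3 UMIs). Prg4, Dcn and the cartilage genes lie far higher in members, Thy1 and Bglap have 0 UMIs in both sets, and the leukocyte genes lie higher in the other barcodes.

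The antigens used for sorting were scarce in these cells. Itgam, which encodes CD11b, stood at 23.2 CPM in members and 1657 in the other barcodes, and Cd68 at 13.2 against 69. Adgre1, which encodes F4/80, had 0 UMIs in members. All 10 leukocyte genes tested were 4-fold or more lower, and Ptprc, the gene of CD45, stood at 5.41 against 511 CPM. The summed leukocyte list stood at 134 CPM in members against 10575. Its share of a member's UMIs never reached 1% (highest 0.701%).

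Neutrophil RNA was present at a low level in nearly every member. The neutrophil list, of which S100a9 was the most abundant gene, summed to 2398 CPM in members and 256057 CPM in the others. For each 100 UMIs of S100a9, members held 69.9 of S100a8 and other barcodes 73.9, and for Ngp the values were 4.94 and 4.66. Members and others differed little in these ratios, and more in those of other neutrophil genes. Csf3r had 1.49 per 100 in members and 0.523 in the others, and Ly6g 1.87 and 0.709. Camp, the antimicrobial peptide cathelicidin, had 37.3 per 100 in members and 0.832 in the others, and Lcn2, an iron-binding acute-phase protein, had 151.1 and 2.04. In 3 members S100a8 and S100a9 reached 1% of the UMIs, and the comparison of OVX and sham is given below with and without them.

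Several secreted matrix and matrix-degrading genes were among the most abundant in members. The matrix glycoprotein list summed to 62201 CPM and the matrix protease list to 34024 CPM. Mmp3, the protease stromelysin, stood at 31449 CPM against 677. Mgp, a secreted inhibitor of calcification, stood at 16061 CPM against 236, Fn1 (fibronectin) at 10896 and Timp1, an inhibitor of matrix proteases, at 2018. All 5 tested small leucine-rich proteoglycans, all 7 tested collagens and 11 of 13 matrix glycoproteins were 4-fold or more higher in members, as were 5 of 9 proteases. These counts include Dcn among the proteoglycans and Prg4 among the glycoproteins, which the selection itself made high. The osteopontin gene Spp1 stood at 1736 CPM.

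Some inflammatory genes were abundant as well. Of 17 chemokine genes 8 were at 10 CPM or less, and 3 of 6 tested were 4-fold or more higher in members. Of 6 tested genes of the NF-kB response 1 was 4-fold or more higher and 1 lower, beside 28.6% and 19.3% of all genes. Cxcl1 and Cxcl2, which attract neutrophils, stood at 5500.0 and 5682 CPM, and Ccl5 at 4669 against 72.3 in the other barcodes. Il11, an IL-6 family cytokine, stood at 2302, whereas Il6 itself had 0 UMIs. Nos2, the inducible nitric oxide synthase, stood at 885 CPM against 9.54. None of 10 measured type I interferon response genes was above 10 CPM. Regulators of osteoclasts, the cells that resorb bone, were divided. Tnfrsf11b, whose product osteoprotegerin blocks RANKL, stood at 1020.3 CPM against 13.2, while Tnfsf11, which encodes RANKL, had 0 UMIs. Csf1, the growth factor of macrophages and osteoclast precursors, stood at 722 against 36.6. Among growth factors, Inhba, the activin A subunit, stood at 5573 CPM, Ccn2, a matrix-bound factor, at 5245 and Bmp2 at 1026.

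Stress genes were detected broadly. Of 19 heat shock genes 15 reached 100 CPM, and 12 of these were 4-fold or more higher in members, beside 28.6% of all genes. Hsp90ab1, a cytosolic chaperone, stood at 3507 CPM against 509, and Hspa5, the chaperone of the endoplasmic reticulum (ER), at 2553 against 664. Of 15 tested ER stress genes 3 were 4-fold or more higher, which is not above the share of 28.6% of all genes. Immediate early genes, which cells induce within minutes of a disturbance, were 4-fold or more higher for 2 of 16 and lower for 2. Both counts lie under the shares of all genes, 28.6% higher and 19.3% lower. Fos stood at 56.7 CPM in members and 121 in the others. Hmox1, the stress-induced heme oxygenase, stood at 1227 against 1233 CPM. The cell cycle inhibitor Cdkn1a stood at 791 against 270.1, and Cdkn2a, the senescence marker gene of p16, had 1 UMI in all members.

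The genes that varied most among members included chemokine genes and the serum amyloid genes, and single cells held much of some of them. For each of 1521 genes at 100 CPM or more, variation of UMIs beyond counting error was given as a squared coefficient of variation. Deviations were taken from the UMIs expected from each member's total, so that members with many UMIs weighed more. The median of this value over the genes was 0.137. Cxcl5, a neutrophil chemoattractant, had the highest value at 66.7, but 1 member held 77.1% of its UMIs. The acute-phase gene Saa2 followed at 47.5, the macrophage elastase gene Mmp12 at 40.3 and the collagenase gene Mmp13 at 27.6. The rule gene Dcn, at 0.162, lay close to the median, while Mmp3, at 0.325, and Prg4, at 0.622, lay above it.

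Louvain clustering split the members into 3 groups, which are called here by genes that led them. The Igfbp5 group had 78 members (41.3%), the Cxcl5 group 50 (26.5%) and the Saa1 group 61 (32.3%). Their median UMIs were similar, at 19839, 21143 and 20523. With 4 clusters, or with Leiden clustering, 1 cluster held the same 61 cells as the Saa1 group, while after thinning to 5000 UMIs the cluster highest in Saa1 held 40 of its 56 remaining cells. The other groups were also divided under some settings. The largest part of the Cxcl5 group in 1 cluster was 50% with 1000 variable genes and 66% with 2 clusters. That of the Igfbp5 group was 66.7% with 4 clusters. The genes below defined the clusters and are therefore described without a test.

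The Igfbp5 group had the most lubricin RNA. Prg4 stood at 38823 CPM there, against 22858 in the Cxcl5 group and 18149 in the Saa1 group. Igfbp5, a binding protein of insulin-like growth factors, stood at 2302, 938 and 73.6 CPM in the same order. Penk, the gene of the opioid precursor proenkephalin, stood at 2479, 771 and 371. Mmp13 and the guidance factor gene Sema3e were also highest there, at 387 and 202 CPM, but 1 cell held 55% of the group's Mmp13 UMIs. Cilp stood at 1346 CPM against 321 and 672, and Col2a1 at 1445 against 421 and 665. Col10a1, the hypertrophic collagen, stood at 447 CPM in the Igfbp5 group and 225 in the Saa1 group and had 0 UMIs in the Cxcl5 group.

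The Cxcl5 group had the highest levels of several chemokine genes and of metallothioneins. Its name is only a label, since Cxcl5 (822 CPM, against 1.85 and 2.04) was found in 12 of its 50 cells and 1 cell held 77.6% of the UMIs. Ccl2, which attracts monocytes, was found in 37 of the 50 and stood at 3775 CPM, against 131 in the Igfbp5 group and 290.4 in the Saa1 group. Cxcl2 stood at 14446 CPM against 2836 and 1735, and Cxcl3 at 2407 against 379.7 and 115. The metal-binding genes Mt1 and Mt2 stood at 1062 and 1028 CPM, against 162 and 203 in the Igfbp5 group and 340.1 and 649 in the Saa1 group. Csf1 stood at 1087 CPM, against 786 in the Igfbp5 and 288 in the Saa1 group.

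The Saa1 group combined acute-phase genes with the highest level of several cartilage genes. Saa1, a serum amyloid A gene, stood at 2698 CPM there and at 1.85 and 6.61 in the Igfbp5 and Cxcl5 groups. It was found in 31 of the 61 cells, and 1 cell held 29.4% of the group's UMIs. Its near-identical neighbour Saa2 was found in 12 cells of the Saa1 group, at 438 CPM, and in none of the other groups. Reads of the pair may be split wrongly between them. Chil1, a secreted chitinase-like protein of inflamed cartilage, stood at 6758 CPM against 389.9 and 125, and Camp at 1185 against 12 and 125. Il23a, a subunit of interleukin 23, stood at 323 CPM. Sox9 stood at 1869 CPM against 866 and 757, Comp at 1955 against 214 and 1349, and Chad at 1632 against 109 and 467. Cnmd, whose product chondromodulin keeps vessels out of cartilage, stood at 462 CPM against 38.4 and 26.4. The ER chaperone gene Hspa5 stood at 5137 CPM, against 1375 and 1640.3. Sox9, Comp, Chad and Cnmd thus had their highest levels in the Saa1 group, and Col2a1 and Cilp in the Igfbp5 group.

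Within single members these genes were loosely related. Across the 164 members with 5000 UMIs or more, Spearman's rho was 0.284 between Saa1 and Chad, 0.325 between Camp and Saa1, -0.034 between Camp and S100a9, 0.314 between Prg4 and Penk and -0.166 between Prg4 and Chad. Prg4 and Dcn, which together chose the cells, had a rho of 0.113. All points share 1 library and counts are sparse, and the values are descriptions.

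**Figure D3:**
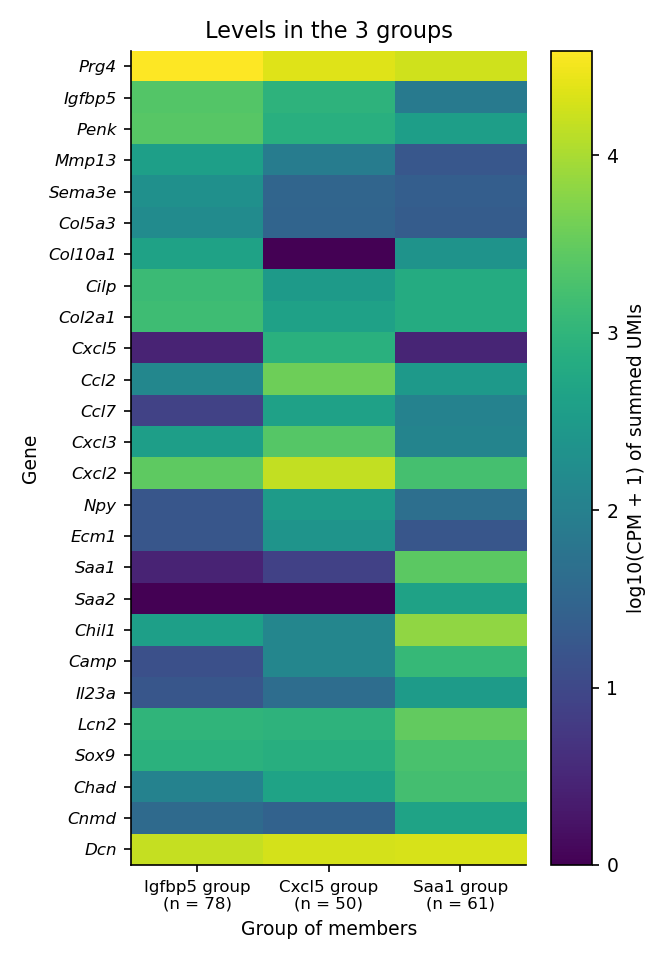
Colour gives the level of genes (rows, log10 of CPM plus 1 of summed UMIs) in the Igfbp5, Cxcl5 and Saa1 groups of 78, 50 and 61 members (columns). Acute-phase genes, Chad and Cnmd are highest in the Saa1 group, chemokines in the Cxcl5 group, and Igfbp5, Penk and Prg4 in the Igfbp5 group.

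The hashtags were weaker on these cells than on the others, which limits any comparison of OVX with sham. The mouse hashtag antibodies bind CD45 and MHC class I. Ptprc was nearly missing in members, as given above, while the class I genes H2-K1 and H2-D1 stood at 178 and 606 CPM against 203 and 1147. Members held a median of 868 hashtag UMIs against 2774 in the other barcodes, and 216.7 per 1000 gene UMIs in sum against 1012. HTODemux left 106 members (56.1%, 48.7 to 63.3%) under the cutoff for both hashtags, against 5.79% of the other barcodes. It called 34 members OVX, 44 sham and 5 both.

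The calls rest on these same hashtag counts. Members called OVX had a median of 1819.5 OVX and 307.5 sham hashtag UMIs, and members called sham 74 and 4566.5. The sham hashtag made up to 45.2% of the hashtag UMIs of a member called OVX. Members under both cutoffs had medians of 72.5 and 326.5, with the sham hashtag at a median of 79.9% of their hashtag UMIs. In other barcodes under both cutoffs that median was 95.8%. A rule that gives a barcode to the hashtag with at least 80% of its hashtag UMIs therefore moves many members of low counts to sham.

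**Figure D4:**
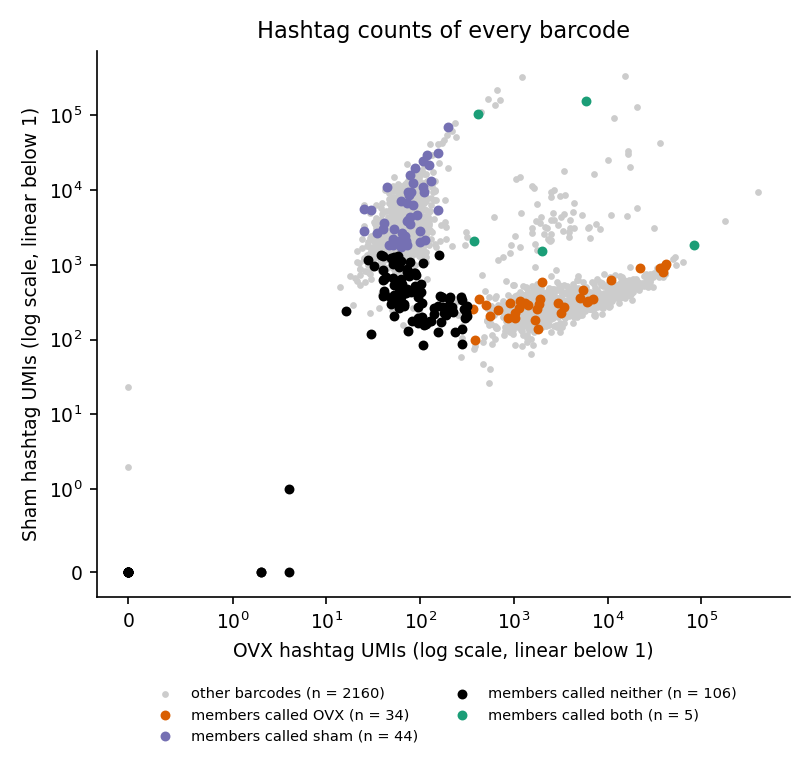
OVX and sham hashtag UMIs of each barcode (log scales that are linear below 1), with members coloured by their HTODemux call. The 34 members called OVX and 44 called sham follow the arms of the other barcodes, while the 106 under both cutoffs lie near the corner where the arms meet, and some at 0.

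Members were 3.21% of the 1059 barcodes called OVX (34 cells, 2.23 to 4.46%) and 4.49% of the 981 called sham (44 cells, 3.28 to 5.97%). These intervals overlap. By the 80% rule members were 2.72% of 956 OVX barcodes (1.78 to 3.96%) and 8.49% of 1166 sham barcodes (6.95 to 10.2%), intervals that do not overlap, but this rule gave sham many of the members with few hashtag UMIs. Since hashtag strength differed between members and other barcodes, labelling and abundance cannot be told apart in these shares.

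Levels in OVX and sham members were compared over 1700 genes that reached 100 CPM in OVX or in sham. Of these, 25 (1.47%) were 2-fold or more higher in OVX members and 20 (1.18%) 2-fold or more lower. By the 80% rule the shares were 1.32% and 0.782% of 1662 genes, and 16 genes lay past 2-fold upward and 9 downward by both rules. The median log2 ratio of all genes was -0.07. Members called OVX and sham had similar median UMIs, 23250 and 23128. Dcn, Mmp3 and Sox9 differed little. Dcn stood at 17799.8 CPM in OVX and 18110.2 in sham members, Mmp3 at 30091 and 29054, and Sox9 at 1188 and 1133. Prg4 stood at 25834 CPM in OVX and 17614 in sham members, and at 35334 in members under both cutoffs.

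Some heat shock genes were lower in OVX members. Of 17 heat shock genes tested, 4 were 2-fold or more lower and none higher, beside 1.18% of all genes, and 16 lay below a ratio of 1. Their median log2 ratio was -0.53, against -0.07 over all genes tested. The genes that passed were Hspa1a and Hspa1b, the stress-inducible members of the HSP70 family, and Cryab and Hspb1, which encode small heat shock proteins. The promoters of Hspa1b and Hspb1 are shown here because heat shock factor binds inverted GAA repeats, and capitals mark GAANNTTC, which reads the same on both strands. The 200 bases run from 250 to 51 bases before the RefSeq start site (GRCm38.p6), at chr17:34959289-34959488 on the minus strand and chr5:135887669-135887868 on the plus strand, written 5′ to 3′ along the gene.
Hspa1b: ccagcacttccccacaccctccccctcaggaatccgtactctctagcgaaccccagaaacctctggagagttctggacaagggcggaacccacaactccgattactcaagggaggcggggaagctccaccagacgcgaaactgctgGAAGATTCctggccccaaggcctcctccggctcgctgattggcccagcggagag
Hspb1: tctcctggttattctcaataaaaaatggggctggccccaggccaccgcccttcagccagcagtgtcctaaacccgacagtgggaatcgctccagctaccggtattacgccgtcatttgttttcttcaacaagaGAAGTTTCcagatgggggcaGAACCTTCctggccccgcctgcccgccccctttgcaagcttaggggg
The motif and the window were chosen after the sequences were seen. It occurred in 5.24% of 27025 promoters of this length and in 5 of 15 promoters of heat shock genes. The Hspa1a window (chr17:34972207-34972406, minus strand) matched that of Hspa1b at 198 of 200 bases. The match is a description of letters and not of a bound site.

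Hspa1b (chr17:34956436-34959238) stood at 141 CPM in OVX members and 766 in sham members, 0.185 of the sham level (0.155 to 0.218). In single OVX members it ranged from 0 to 1162 CPM with a median of 54.5, and in sham members from 0 to 50406 with a median of 214. The ranges overlap, and 19 of 34 OVX and 35 of 44 sham members had a UMI. Members under both cutoffs stood between, at 719 CPM. The highest sham member held 23.5% of the sham UMIs, and without the member with the most UMIs the log2 ratio moved from -2.44 to -2.06. Since Hspa1a (chr17:34969190-34972156) is nearly identical to Hspa1b, their sum is the safer value. It was 197.7 CPM in OVX and 1124 in sham members, 0.176 of the sham level (0.152 to 0.202), with medians of 54.5 and 388 CPM per cell. Across members with 5000 UMIs or more Hspa1a and Hspa1b had a rho of 0.81, and Hspa1b and Cryab one of 0.161.

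Cryab (chr9:50751325-50756636) stood at 147 CPM in OVX and 965 in sham members, 0.152 of the sham level (0.129 to 0.178). Members under both cutoffs stood at 681 CPM. It was found in 14 OVX and 29 sham members, the highest at 1167 and 9199 CPM. Much of the sham RNA of Cryab came from few cells of the Cxcl5 group. Of these, 1 with 141565 UMIs stood at 3045 CPM and 1 with 34024 UMIs at 9199 CPM. Without the member with the most UMIs the log2 ratio of Cryab moved from -2.72 to -2.28. Hspb1 (chr5:135887919-135889563) stood at 243 and 571 CPM, 0.425 of the sham level (0.369 to 0.489), in 19 and 32 members. Without the member with the most UMIs its log2 ratio moved from -1.23 to -0.98, just under 2-fold. Again the cells of the 2 conditions overlap, with the highest values in sham. Thinned to 5000 UMIs, which left out no OVX and 4 sham members, Hspa1a was detected in 11.8% of 34 OVX members (3.3 to 27.5%) and 40% of 40 sham members (24.9 to 56.7%), and Cryab in 20.6% (8.7 to 37.9%) and 47.5% (31.5 to 63.9%). Hspa1b was detected in 38.2% (22.2 to 56.4%) and 60% (43.3 to 75.1%), and Hspb1 in 32.4% (17.4 to 50.5%) and 57.5% (40.9 to 73%). The intervals of each gene overlap. Within the Saa1 group Hspa1b stood at 96.4 CPM in 12 OVX and 1276 in 14 sham members, within the Igfbp5 group at 174.3 and 732, and within the Cxcl5 group at 106.7 and 394. The sham value of the Saa1 group rested largely on 1 cell of 4682 UMIs, at 50406 CPM. Cryab was lower in OVX in the Saa1 and Cxcl5 groups, and higher in the Igfbp5 group at 83.2 against 40.5 CPM. In the other barcodes the OVX level of Hspa1b was 0.749 and that of Cryab 0.421 of the sham level. The heat shock list summed to 12571 CPM in OVX and 18507 in sham members, and to 2163 and 3689 CPM in the other barcodes, so that the list as a whole was also lower in OVX outside the members.

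**Figure D5:**
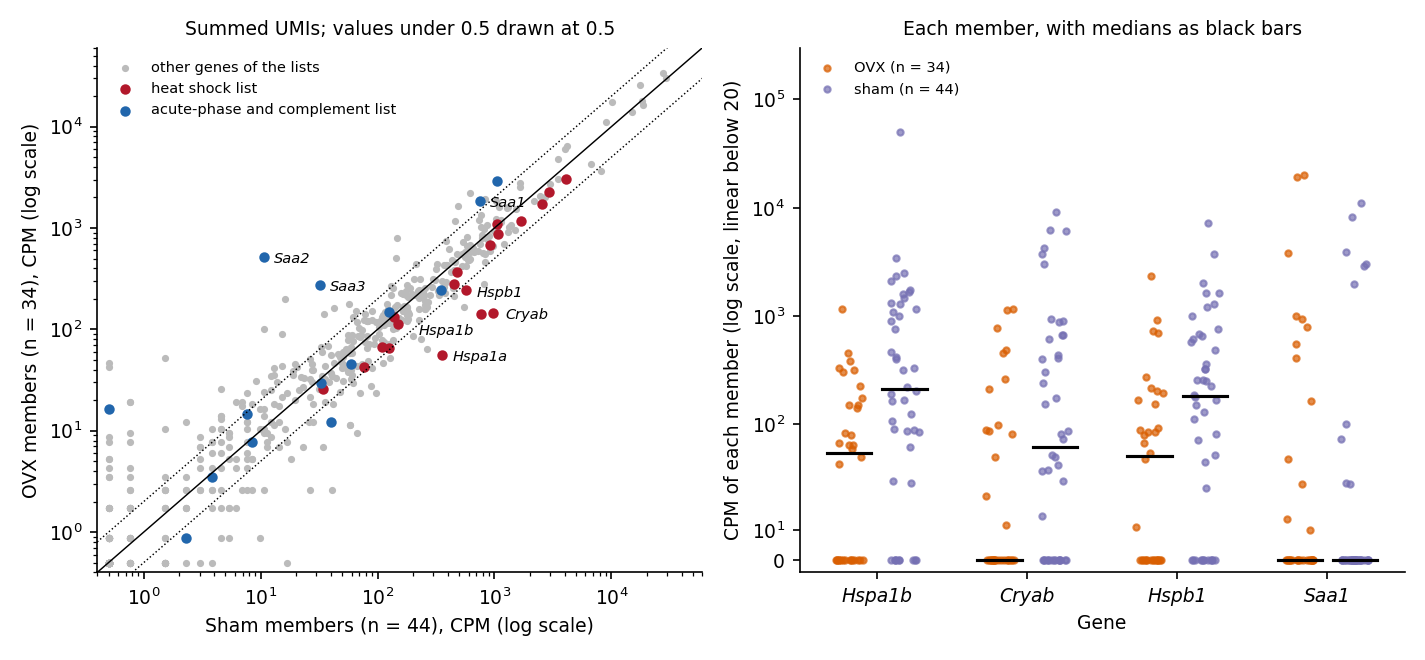
Left, level of the listed genes in OVX and sham members (CPM, log scales), with dotted lines at 2-fold. Right, CPM of Hspa1b, Cryab, Hspb1 and Saa1 in each of 34 OVX and 44 sham members (log scale that is linear below 20), where black bars are medians and the cells of both conditions overlap in each gene.

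Some acute-phase genes were higher in OVX members by HTODemux, but not under every rule, and the serum amyloid genes were found in few cells. Of 6 tested genes of the acute-phase and complement list, 4 were 2-fold or more higher, beside 1.47% of all genes. They were Saa1, Saa2, Saa3 and Lcn2. The 95% rule leaves 7 OVX members, 1 of them in the Saa1 group, and 55 sham members, 18 of them in that group. By this rule the log2 ratio turned to -5.18 for Saa1, -2.11 for Lcn2 and -0.30 for Saa3. With equal weight per cell it was 0.96 for Saa1 and 0.93 for Lcn2, under 2-fold. Lcn2 stood at 2921 CPM in OVX and 1053 in sham members, in 30 of 34 and 41 of 44 cells, with medians of 855 and 493 CPM per cell. The windows of Saa1 and Saa2 are shown because these genes marked a group of members, and capitals mark TTGCNNAA, the core of a C/EBP-type site on either strand. They lie at chr7:46743031-46743230 on the minus and chr7:46751583-46751782 on the plus strand of GRCm38.p6, counted from the RefSeq start sites. Gene spans in the text are those of GENCODE vM21, in which Saa2 starts closer to the window.
Saa1: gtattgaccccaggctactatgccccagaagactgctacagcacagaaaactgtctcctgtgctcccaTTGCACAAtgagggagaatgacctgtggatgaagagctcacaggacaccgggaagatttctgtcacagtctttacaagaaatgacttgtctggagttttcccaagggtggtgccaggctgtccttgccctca
Saa2: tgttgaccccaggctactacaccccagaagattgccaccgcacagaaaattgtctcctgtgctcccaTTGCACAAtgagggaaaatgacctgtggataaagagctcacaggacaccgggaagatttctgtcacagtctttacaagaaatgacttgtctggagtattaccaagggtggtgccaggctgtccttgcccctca
This motif, also chosen after the sequences were seen, occurred in 8.13% of all promoters. The aligned windows of Saa1 and Saa2 were 93.5% identical, and those of Saa1 and Saa3 52.8%.

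Saa1 (chr7:46740497-46742980) stood at 1837 CPM in OVX and 745 in sham members, and 1 cell held 55% of the OVX UMIs. Together Saa1 and Saa2 stood at 2358 and 756 CPM, a ratio of 3.12 (2.9 to 3.36), and were found in 13 of 34 OVX and 10 of 44 sham members. Of the UMIs of this pair, 1 cell held 52.9% in OVX and 1 cell 53.8% in sham members. The median cell of both conditions had none. Saa2 (chr7:46751790-46754313) alone stood at 521 and 10.7 CPM, in 3 and 4 cells. Without the member that held the most UMIs the log2 ratio of Saa1 fell from 1.30 to 0.23, and that of Saa2 from 5.61 to 4.54. Camp stood at 799.5 and 147 CPM, with 60.3% of the OVX UMIs in 1 cell. Its log2 ratio moved from 2.44 to 1.19 without the member with the most UMIs, and turned to -3.86 by the 95% rule. Most of its RNA came from the Saa1 group, in which it stood at 2882 CPM in OVX and 444.9 in sham members. In that group 1 sham member of 64289 UMIs, at 2053 CPM, held most of the sham UMIs of Camp.

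Several other genes that were higher in OVX members rested on few cells. Slurp1, a secreted epithelial peptide gene, stood at 200.3 and 16 CPM with 83.5% of the OVX UMIs in 1 cell. Mmp13 stood at 500.4 and 145 CPM with 79.7% in 1 cell. S100a8 stood at 1657 and 485 CPM, and its log2 ratio of 1.77 became 0.08 without the 3 members in which S100a8 and S100a9 reached 1%. Of 4 neutrophil genes tested 3, S100a8, S100a9 and Camp, were 2-fold or more higher in OVX members, beside 1.47% of all genes, and 2 of 4 by the 80% rule. The list summed to 4699 CPM in OVX and 1671 in sham members. Without the same 3 members the log2 ratio of S100a9 turned from 1.21 to -0.069, so that the calls of both S100 genes ended. That of Camp was 2.50 without them, so that its call remained. Camp is counted here because it is in the list. Per 100 UMIs of S100a9, however, members held 37.3 of Camp and the other barcodes 0.832. The median cell held 1306 CPM of S100a8 and S100a9 together in OVX and 1263 in sham members. Without those 3 members the log2 ratio was 1.33 for Saa1 and -2.40 for Hspa1b, close to the values with them. The leukocyte list summed to 232 and 119 CPM.

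Penk stood at 2200.1 CPM in OVX and 618 in sham members, a ratio of 3.56 (3.29 to 3.86). It was found in 20 OVX and 25 sham members, and after thinning to 5000 UMIs in 47.1% and 47.5%, so that the share of cells was nearly the same. Its log2 ratio fell from 1.83 to 0.73 with equal weight per cell and to 0.83 after thinning, both under 2-fold, and was -1.54 in the Saa1 group alone. Plet1 and Moxd1 stood at 162 and 178 CPM in OVX members and at 42.7 and 57.2 in sham members. The log2 ratio of Plet1 was 1.45 by the 80% rule and 1.84 with equal weight per cell, and 0.38 in the Saa1 group alone. That of Moxd1 fell from 1.64 to 0.82 and 0.36, under 2-fold.

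Among the genes lower in OVX members, Chad stood at 277 CPM in OVX and 809 in sham members, 0.343 of the sham level (0.302 to 0.389), with 731 CPM in members under both cutoffs. Its log2 ratio moved from -1.54 to -0.72 with equal weight per cell, and turned to 0.71 by the 95% rule and to 1.03 in the Igfbp5 group alone. Of 4 chemokine genes tested, Ccl2 and Cxcl2 were 2-fold or more lower, beside 1.18% of all genes. Ccl2 stood at 166 and 549 CPM, and at 2073 in members under both cutoffs, which was higher than in either called set. Its log2 ratio moved from -1.73 to -0.68 with equal weight per cell and turned to 0.51 by the 95% rule. Lif, an IL-6 family cytokine, stood at 86.7 and 203 CPM, Has1, a hyaluronan synthase gene, at 46.8 and 111, and Procr, the protein C receptor gene, at 79.8 and 235. Slpi, a protease inhibitor of inflamed tissue, stood at 63.3 and 264 CPM, with 78% of the sham UMIs in 1 cell. By the 80% rule the log2 ratio was -0.90 for Lif, -0.91 for Has1 and -0.91 for Slpi, under 2-fold. Lif turned to 0.64 by the 95% rule, and Lif, Has1 and Procr turned to 1.09, 0.63 and 0.46 in the Saa1 group alone. No gene was past 2-fold among the 18 tested of the NRF2 and antioxidant list, the 17 of the ER stress list and the 12 of the p53 and senescence list. With 1.47% of all genes higher and 1.18% lower, this is near the background share and not a result about these lists. Cdkn1a stood at 594 CPM in OVX and 909 in sham members, and Hmox1 at 1021 and 1332.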

How the data were processed

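The authors aligned the reads of a droplet library (10x 3′ kit v3.1) to mm10 with Cell Ranger and deposited UMI counts, not normalized, for 32285 genes and 2 hashtags in 2349 called barcodes. The header of the counts gives Cell Ranger 6.0.0, the submitters' processing notes 6.0.1. The labels give 1037 OVX and 1084 sham cells loaded. Hashtag counts were taken from this matrix, and no separate file of the hashtag library was used.

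Condition came from hashtag counts alone (HTODemux, Seurat 5.3.0, R 4.3.3), with shares of 80% and 95% of at least 10 hashtag UMIs as alternatives. CPM, 95% intervals (Poisson, Clopper-Pearson, conditional binomial for ratios) and thinning were computed in Python 3.11.15 with scipy 1.17.1. Counts under 3 UMIs per set, zeros included, were set to a floor of 3 UMIs in ratios. Groups were made with scanpy 1.11.5 and igraph 0.11.9 (2000 variable genes, 20 principal components, 10 neighbors, resolution 0.3). No doublet was removed, and members with leukocyte markers at 1% numbered 0. Calculations were tested on simulated data. No test was made between conditions, which had 1 pool each.

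Members, gene lists and comparisons were chosen with earlier results of these data known. Genes named are the markers, the 15 most abundant in members (mitochondrial and cytosolic ribosomal protein genes left out), the 20 largest folds over other barcodes, up to 6 per list and defining genes at 10 CPM or less, the 10 largest and 10 smallest OVX to sham ratios past 1.5-fold by both hashtag rules, 5 per group, the 10 most variable, and the sorting and hashtag antigens. Camp, Lcn2, Penk and Thbs1 were also followed after their values were seen, and some names, such as Cnmd, Sema3e, Il23a and Sox9 by group, were picked from these values.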

Additional observations from a re-analysis of the deposited data

Results flagged for a closer look

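Thbs1, the gene of the matrix protein thrombospondin 1, had a log2 ratio of OVX to sham of 1.24 in members and -1.85 in the other barcodes, the opposite direction. In members it stood at 153 CPM in OVX and 64.8 in sham, and 1 cell held 39.8% of the OVX UMIs. In the other barcodes it stood at 656 and 2364 CPM. The log2 ratio in members was 0.55 without the member with the most UMIs, 0.60 at a member threshold of 1%, 0.88 with equal weight per cell, 0.39 after thinning to 5000 UMIs and -0.41 in the Cxcl5 group alone. It rose to 1.58 by the 80% rule and to 3.29 by the 95% rule. The difference between the sets was not tested, since there was 1 pool per condition.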

How the results depend on the processing

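No paired analysis was possible because there was 1 pool per condition, and for the same reason no replicate could be left out. The number of members lay between 158 and 200, and the number of genes 4-fold or more higher in members between 571 and 697, over the alternatives tried. Of 59 alternatives for the main values, 39 gave like values and 20 moved them. The sham share became 8.49% by the 80% rule. The 25 genes 2-fold or more higher in OVX members became 96 by the 95% rule (7 OVX members), 59 after thinning to 5000 UMIs, 43 at a minimum of 50 CPM, and 74 in the Cxcl5 and 53 in the Saa1 group alone. The 20 lower genes became 13 by the 80% rule, 113 by the 95% rule, 61 with equal weight per cell, 92 after thinning, 46 at 50 CPM, and 32, 103 and 55 in the Igfbp5, Cxcl5 and Saa1 groups alone. The adjusted Rand index against the 3 groups was 0.534 for 2 and 0.821 for 4 clusters, 0.519 for 1000 variable genes, 0.586 after thinning, 0.887 for OVX and sham members alone and 0.791 without members under 1000 UMIs. The causes were not tested.

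Over 331 alternatives for 24 named genes, 305 kept the direction and 26 reversed it. By the 95% rule the log2 ratio became -0.30 for Saa3, -3.86 for Camp, -1.11 for Mmp13, 0.51 for Ccl2, 0.71 for Chad, 0.64 for Lif, -5.18 for Saa1 and -2.11 for Lcn2. In the Igfbp5 group alone it became 1.04 for Cryab, 2.998 for Slpi and 1.03 for Chad. In the Cxcl5 group alone it became -0.46 for Saa3, -0.88 for Mmp13, -0.14 for S100a9 and -0.41 for Thbs1. In the Saa1 group alone it became -2.01 for Slurp1, -1.54 for Penk, 0.048 for Slpi, 0.46 for Procr, 0.63 for Has1 and 1.09 for Lif. Without members with S100a8 and S100a9 at 1% it became -0.48 for Cstdc4 and -0.069 for S100a9, without the member with the most UMIs of the gene -0.39 for Mmp13 and 0.11 for Slpi, and at a member threshold of 1% 0.10 for Slpi. Hspa1a and Hspa1b stayed 2-fold or more lower in every alternative, at -1.88 at the least. Hspb1, Plet1 and Saa2 kept their direction with values down to -0.28, 0.38 and 0.51, while S100a8 and Moxd1 came down to 0.015 and 0.0046, near no difference. Of 17 heat shock genes, between 13 and 17 were lower in OVX members in each alternative. Their median log2 ratio lay between -0.43 and -0.76. The median over all genes tested was also below 0 each time, between -0.023 and -0.096. With 34 and 44 called members, a gene found in few cells cannot be resolved at this depth.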

Other observations

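Among the barcodes outside the rule, 7 had at least 0.5% of their UMIs from 8 cartilage genes (Sox9, Comp, Acan, Col2a1, Cilp, Chad, Mgp and Clu), a sum chosen after the data were seen. Their Prg4 and Dcn share ran from 0 to 0.26% and their UMIs from 658 to 80688. For each 100 UMIs of S100a9, Retnlg had 11.6 in members and 7.93 in other barcodes, and Ltf 1.18 and 0.72.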
